A study of Mus musculus with 6 samples.

Results

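Extracellular ATP and adenosine are opposing signals around a cell, and the genes described here make, sense and remove them. Of 10 such genes chosen by name (Nt5e, Entpd1, Entpd2, P2rx4, P2rx7, P2ry2, Adora2b, Ada, Adk and Slc29a1), 9 had a row among the 23449 genes of the count table, and Entpd1 was not analysed here. Of the 9, 8 had enough counts to be tested among 13698 genes, and Adora2b did not. No measured value entered the choice of the names by the rule, but they were proposed with earlier results of these data known.

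RNA was sequenced from 6 mammary cell lines of female FVB/N mice. The genotype of 3 lines is given as EIC/WT and that of the other 3 as 16IC/WT, and all 6 grew in doxycycline at 10 ug/mL. As general knowledge of these models, which the labels do not state, doxycycline turns on wild-type ErbB2 (HER2) in EIC cells and the HER2 form without exon 16 in 16IC cells. The lines titled EIC_4026, EIC_NT and EIC_7559 are called EIC 1 to 3 here, and 16IC_1984, 16IC_4982 and 16IC_7391 are called 16IC 1 to 3. There was no line off doxycycline. NT is unexplained, and nothing states that the lines came from separate animals, so p-values measure the spread among these samples, which may be technical.

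ATP that leaves a cell opens P2X channels and activates P2Y receptors. Enzymes on the cell surface then shorten it: CD39 (Entpd1) and its relative NTPDase2 (Entpd2) remove the outer phosphates, and CD73 (Nt5e) turns AMP into adenosine. Adenosine acts on its own receptors, among them A2B (Adora2b), and restrains T cells and natural killer cells in tumours. It is cleared when the transporter ENT1 (Slc29a1) carries it into cells, where adenosine deaminase (Ada) makes inosine and adenosine kinase (Adk) makes AMP.

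Libraries held 15621563 to 17468498 counts. Levels are given in CPM, the usual depth-scaled read count, after TMM scaling. Epithelial markers summed to 2568 to 3572 CPM in EIC, to 11570 and 11494 CPM in 16IC 1 and 16IC 2, and to 1714 CPM in 16IC 3. Krt8 and Krt18, keratins of simple epithelium, were at or above 563 CPM in every line, while the adhesion gene Epcam reached at most 3.79 CPM in the EIC lines. Krt19, of the same list, had 7.70, 198 and 10.1 CPM in EIC 1 to 3 and at most 0.649 CPM in 16IC. Of 9 tested epithelial markers, 4 lay higher in 16IC without overlap and 1, Krt19, lay lower. Together these were 55.6%, beside 31.4% of all tested genes. Krt5 stayed at or below 0.0612 CPM in every line. The leukocyte gene Ptprc stayed at or below 0.306 CPM and Itgam at or below 0.0612 CPM in all 6 lines. The macrophage receptor gene Csf1r had 3.73 and 4.65 CPM in 16IC 1 and 16IC 2, at most 0.241 CPM in EIC and 0 counts in 16IC 3. The 10 leukocyte markers, of which 5 had a row, summed to 14.6 to 47.7 CPM in EIC and 12.5 to 19.1 CPM in 16IC, most of it in each line from Cd68, a lysosomal gene. The 8 fibroblast markers, of which 7 had a row, summed to 93.1 to 286 CPM in EIC and 11.6 to 36.0 CPM in 16IC, without overlap. Most of the EIC sum came from Fbln1 and Pdgfra, whereas the collagen gene Col1a1 stayed at or below 4.99 CPM and the matrix gene Dcn at or below 1.87 CPM in every line. Col1a1 (0.513 to 1.99 CPM in EIC, 3.13 to 4.99 CPM in 16IC) and the matrix gene Postn (at most 1.06 CPM in EIC, 2.39 to 8.04 CPM in 16IC) lay in the opposite direction to the sum, without overlap. The part of these marker differences in the results on the member genes was not tested, and in bulk RNA fewer cells of a type and less RNA per cell cannot be told apart.

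Among the receptors of extracellular ATP, P2rx7 rose in 16IC, while P2rx4 and P2ry2 had higher means that did not pass the test. P2rx7 encodes an ATP-gated channel that opens at high ATP concentrations. It had 10.7, 12.6 and 10.6 CPM in EIC 1 to 3 and 36.2, 41.9 and 60.5 CPM in 16IC 1 to 3. Every 16IC line lay above every EIC line, with 16IC 3 the highest. The means were 11.3 ± 1.13 and 46.2 ± 12.7 CPM (SD, n = 3), a 4.10-fold difference. The fitted log2 fold change was 2.03 (SE 0.26, 95% interval 1.401 to 2.67, edgeR adjusted p = 0.0360).

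P2rx7 was the 1 member called of 8 tested, where edgeR called 2.45% of all tested genes. Limma-voom also called this 1 member (2.1% of all genes). DESeq2 called P2rx7 and Adk, with 12.4% called of the 16362 genes to which it gave an adjusted p. Leaving out any 1 of EIC 1, EIC 3, 16IC 1 and 16IC 2 ended the P2rx7 call, with an edgeR adjusted p between 0.121 and 0.157. Over all such omissions its log2 fold change lay between 1.79 and 2.18.

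P2rx4, which encodes a more ATP-sensitive channel found partly on lysosomes, had 45.7, 42.8 and 53.4 CPM in EIC 1 to 3. It had 50.2, 72.9 and 130 CPM in 16IC 1 to 3. The lowest 16IC line, 16IC 1, lay below EIC 3, so the groups overlapped, and 16IC 3 stood above the rest. The log2 fold change of 0.83 (SE 0.36, 95% interval -0.04 to 1.70) did not pass the test (edgeR adjusted p = 0.236) and was 0.38 without 16IC 3.

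**Figure D1:**
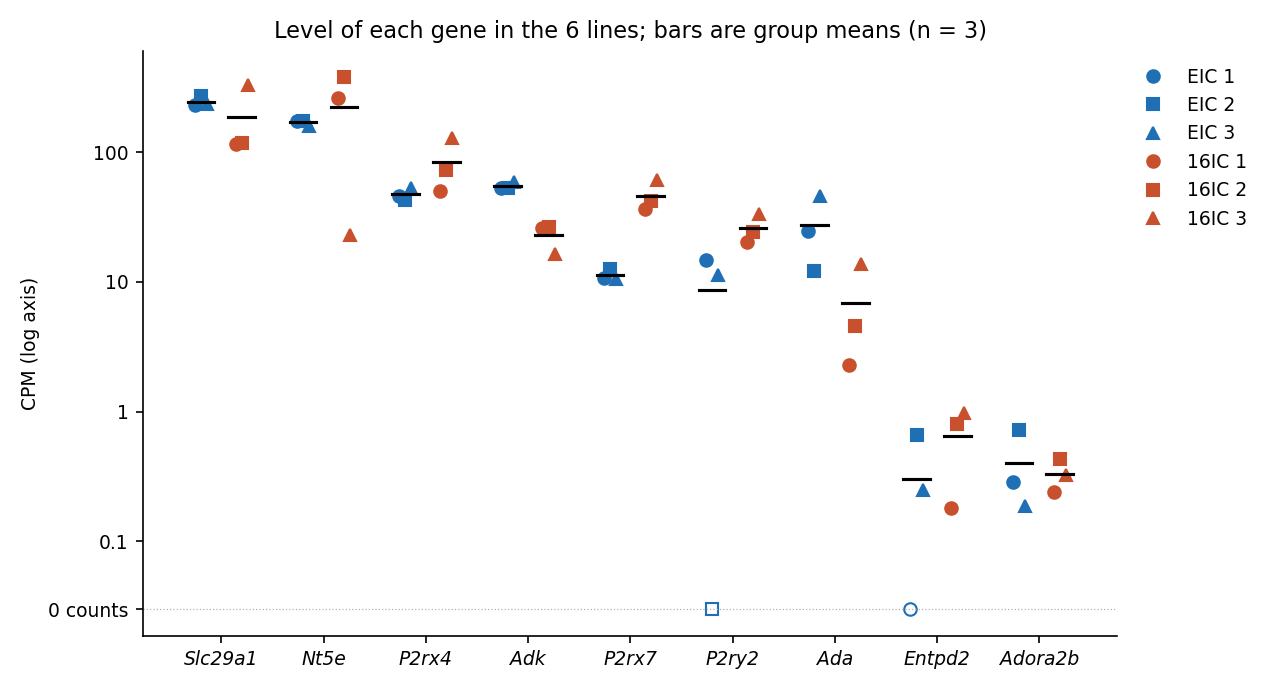
Level of the 9 measured genes in each line, in CPM on a log axis, with black bars at the group means and open symbols at 0 counts. P2rx7 and P2ry2 were higher and Adk was lower in every 16IC line than in every EIC line, Nt5e was lowest in 16IC 3 (23.2 CPM), and P2ry2 had 0 counts in EIC 2.

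P2rx7 (chromosome 5, 122643911 to 122691432, mm10) and P2rx4 (122707544 to 122729738) lie next to each other on the + strand, 16111 bases apart. The RefSeq sequences (GRCm38.p6) before the 2 gene starts are shown because the genes are neighbours of which only P2rx7 was called. The differences of the 2 genes were not tested against each other. Capitals mark matches, on either strand, to the AP-1 letters TGANTCA or the GC box GGGCGG, and TGACGTCA and ACGTG were also searched.
P2rx7, chr5:122643677-122643910, + strand: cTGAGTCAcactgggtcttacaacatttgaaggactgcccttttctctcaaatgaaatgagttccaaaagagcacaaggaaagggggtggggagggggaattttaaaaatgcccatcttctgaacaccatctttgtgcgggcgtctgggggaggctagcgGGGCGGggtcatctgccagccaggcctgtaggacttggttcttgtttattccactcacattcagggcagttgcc
P2rx4, chr5:122707294-122707543, + strand: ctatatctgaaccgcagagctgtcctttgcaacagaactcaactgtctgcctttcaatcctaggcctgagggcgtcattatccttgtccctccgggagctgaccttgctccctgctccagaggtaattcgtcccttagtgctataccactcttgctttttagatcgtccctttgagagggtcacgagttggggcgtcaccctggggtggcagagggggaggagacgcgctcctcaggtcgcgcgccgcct

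The P2rx7 stretch held 1 AP-1 match and 1 GC box, and the P2rx4 stretch held none of the 4 motifs. The P2rx7 stretch is 234 bases and ends before the gene start given above. The full 250 bases before its RefSeq start held 1 AP-1 match and 2 GC boxes. Among 27025 RefSeq promoters of 250 bases, 6.85% held TGANTCA, 32.96% held GGGCGG, 1.599% held TGACGTCA and 16.5% held ACGTG. A match describes letters only, and no marked match overlaps another.

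Around the pair the differences were mixed. Within 1 megabase of P2rx7, 39 other genes were tested, with a median log2 fold change of 0.06. Of these, 6 lay higher and 6 lower in 16IC without overlap between the groups, 15.4% each. Among all tested genes the shares were 17.2% higher and 14.2% lower. Camkk2, a kinase gene 1431 bases beyond P2rx4, had a log2 fold change of -0.49 (edgeR adjusted p = 0.199).

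By Pearson correlation of log2 CPM over the 6 lines, the genes most like P2rx7 were Pisd-ps1 (r = 0.9986), Nhsl1 (r = 0.9977) and Echdc2 (r = 0.9970). Echdc2 had 8.61 to 10.5 CPM in EIC and 26.3 to 52.2 CPM in 16IC. Nhsl1 was more abundant, at 173 to 219 CPM in EIC and 503 to 718 CPM in 16IC. Of 12038 genes ranked, 1.57% exceeded an r of 0.95, and the 6 points share their libraries and the split into 2 groups.

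P2ry2 encodes a G protein-coupled receptor for ATP and UTP. It had 257, 0 and 181 counts in EIC 1 to 3, and 336, 394 and 516 counts in 16IC 1 to 3. In CPM these were 14.7, 0 and 11.3 in EIC and 20.2, 24.1 and 33.5 in 16IC. All 16IC lines were above all EIC lines, and EIC 2 stood apart from the others with no read. Set against a floor of 3 counts in that library (0.180 CPM), P2ry2 was at least 62.4-fold higher in EIC 3 and at least 185-fold higher in 16IC 3 than in EIC 2. Such floors, and the counting intervals given for other genes, reflect counting error alone, as reads without molecular identifiers are not independent molecules.

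With 1 line at 0, the EIC mean of P2ry2 was 8.64 ± 7.67 CPM against 25.9 ± 6.80 CPM in 16IC (SD, n = 3). The log2 fold change was 1.59 (SE 1.38, 95% interval -1.75 to 4.92) and edgeR did not call it (adjusted p = 0.548). Without EIC 2 it was 0.99 (edgeR adjusted p = 0.157), and limma-voom gave 3.87 with all 6 lines (adjusted p = 0.268).

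Such an isolated absence was rare. Of 13698 tested genes, 9 (0.0657%) had 0 counts in EIC 2 and at least 10 CPM in each of the other 5 lines, and P2ry2 was among them with Cldn4, Csf3, Evl, Tle1 and 4 others. In each of the other 5 lines no gene met the same rule, which was set after the P2ry2 values were seen. The neighbouring receptor gene P2ry6, 21918 bases away, also had 0 counts in EIC 2, but only 5 to 6 counts in EIC 1, EIC 3, 16IC 1 and 16IC 2 and 93 in 16IC 3. The genes on either side of the pair were well expressed in EIC 2. Arhgef17 had 3037 counts there against 242 and 266 in EIC 1 and EIC 3, and Fchsd2 had 425 against 446 and 517.

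**Figure D2:**
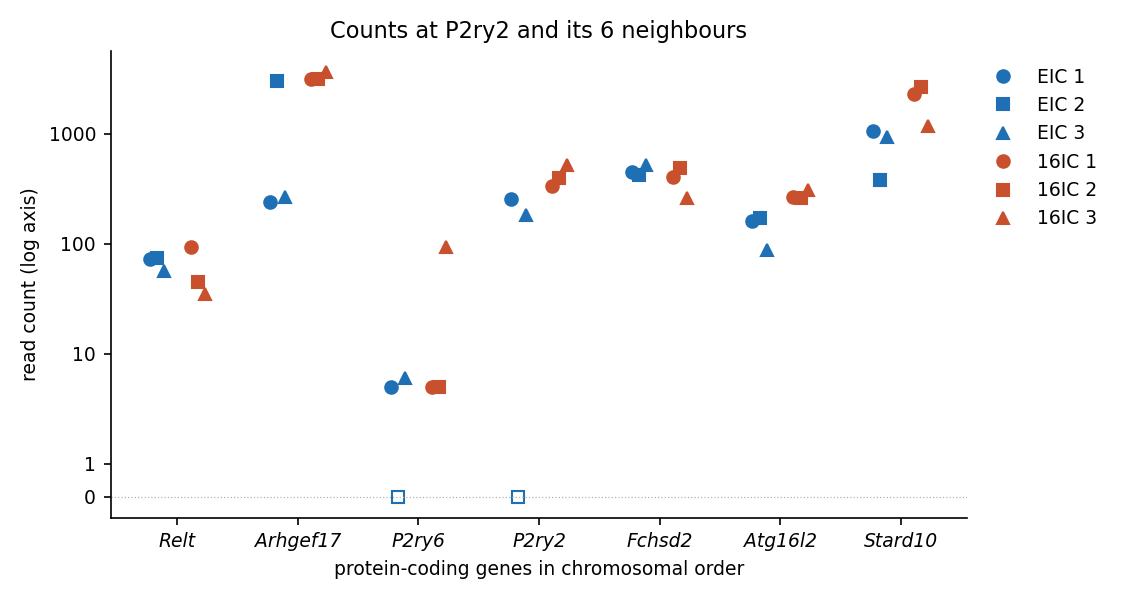
Read counts (log axis) of P2ry2 and 3 protein-coding neighbours on each side, in chromosomal order, for the 6 lines. EIC 2 (blue squares) has 0 counts at P2ry6 and P2ry2, and lies with the 16IC lines at Arhgef17 with 3037 counts.

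The genes most like P2ry2 over the lines were Smim20 (r = 0.9976), Dgkq (r = 0.9967) and Ror1 (r = 0.9959). EIC 2 weighs heavily in these values, as P2ry2 there differed by -7.73 in log2 CPM from the mean of EIC 1 and EIC 3. Ror1, a receptor tyrosine kinase-like gene, had 0.120 CPM in EIC 2 against 11.6 and 14.1 CPM in the other EIC lines and 23.3 to 44.4 CPM in 16IC. Smim20 and Dgkq were only lowered in EIC 2, to 14.6 and 13.5 CPM from at least 24.5 CPM elsewhere.

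The enzymes and the transporter that clear adenosine had lower means in 16IC, Adk with the least spread. Adk, which returns adenosine to AMP, had 52.8, 52.9 and 58.8 CPM in EIC 1 to 3 and 25.9, 26.6 and 16.3 CPM in 16IC 1 to 3. No 16IC line reached the lowest EIC line. The mean was 54.8 ± 3.40 CPM in EIC and 23.0 ± 5.73 CPM in 16IC (SD, n = 3), 2.39-fold lower. The log2 fold change was -1.26 (SE 0.24, 95% interval -1.84 to -0.67) and just missed the threshold in edgeR (adjusted p = 0.0564). Adk was called without 16IC 3 (edgeR adjusted p = 0.0189) and by DESeq2 with all lines (adjusted p = 0.00139). Without 16IC 3 the 16IC group was the closest pair of libraries, and edgeR called 13.4% of all genes. Without any other single line the edgeR adjusted p of Adk was 0.0841 to 0.191.

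Adk (chromosome 14, 21052574 to 21448569, mm10) shared its difference with the genes around it. Its nearest neighbour Ap3m1, which encodes a subunit of an adaptor complex for vesicle traffic, starts 65 bases away on the opposite strand. Ap3m1 was named after its values were seen: it had 107, 80.4 and 132 CPM in EIC 1 to 3 and 42.2, 43.1 and 36.6 CPM in 16IC 1 to 3. Ap3m1 was called lower (log2 fold change -1.39, edgeR adjusted p = 0.0432). The stretch between the genes is shown since both start from it, in RefSeq letters (GRCm38.p6) with the GC box GGGCGG in capitals.
Ap3m1-Adk, chr14:21052509-21052573, + strand: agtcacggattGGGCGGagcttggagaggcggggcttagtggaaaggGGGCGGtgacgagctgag

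Within 1 megabase of Adk, 27 of 30 other tested genes were below 0 on the log2 scale, and the median was -0.87. Of these 30, 19 lay lower in every 16IC line than in every EIC line (63.3%) and 0 lay higher, against 14.2% lower and 17.2% higher among all tested genes. Over chromosome 14 as a whole, without Adk, 336 of 435 tested genes had a negative value (77.2%, against 50.3% of all tested genes), and the median was -0.59 against -0.0044 overall. The median centred log2 CPM of the 30 neighbours was 0.42, 0.44 and 0.47 for EIC 1 to 3, and it was -0.51, -0.41 and -0.55 for 16IC 1 to 3. Over chromosome 14 without Adk the same medians were 0.18, 0.62 and 0.10 for EIC 1 to 3, with EIC 2 well above the others. They were -0.23, -0.26 and -0.33 for 16IC 1 to 3. All 3 lines of a group thus lay on 1 side, both near Adk and over the chromosome. The part that this shared shift has in the Adk difference was not tested.

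**Figure D3:**
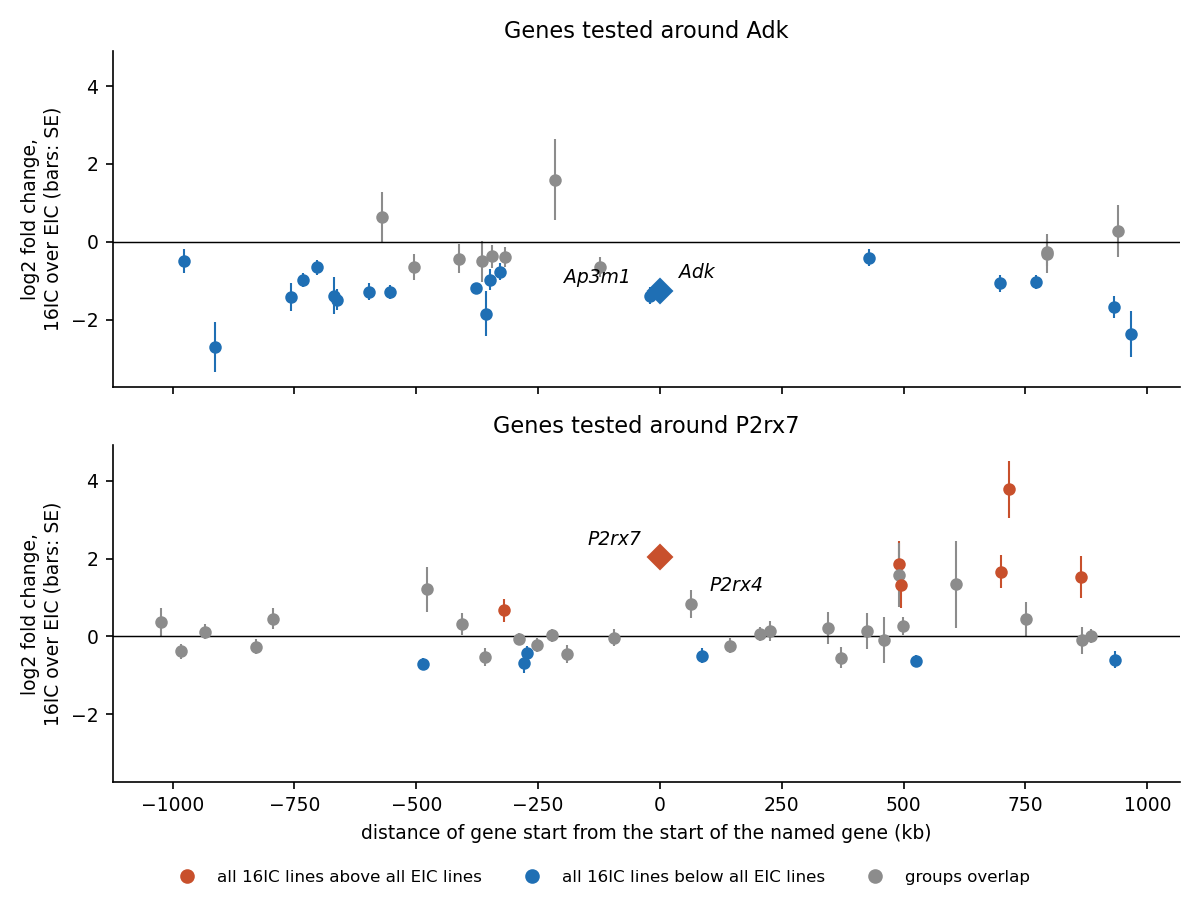
Log2 fold change, 16IC over EIC, of tested genes within 1 megabase of Adk (top) and P2rx7 (bottom) by distance between gene starts in kb, with SE bars. Around Adk 27 of 30 other genes are below 0, and around P2rx7 17 of 39 are.

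Ada, which deaminates adenosine to inosine, had 24.7, 12.2 and 45.6 CPM in EIC 1 to 3 and 2.29, 4.59 and 13.7 CPM in 16IC 1 to 3. The highest 16IC line, 16IC 3, lay just above the lowest EIC line, EIC 2. The means of 27.5 ± 16.9 and 6.85 ± 6.03 CPM (SD, n = 3) differed 4.01-fold, but the spread within each group was wide. The log2 fold change of -2.004 (SE 0.78, 95% interval -3.90 to -0.10) did not pass adjustment (edgeR adjusted p = 0.200). Without 16IC 3 it was -3.00 and lay at the threshold (edgeR adjusted p = 0.0501), and without EIC 3 it was -1.44 (edgeR adjusted p = 0.440). Genes within 1 megabase of Ada had a median log2 fold change of 0.02 over 25 tested.

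Slc29a1 encodes ENT1, the transporter that equalises adenosine across the membrane. It had 230, 271 and 235 CPM in EIC 1 to 3 and 115, 118 and 329 CPM in 16IC 1 to 3. Here 16IC 1 and 16IC 2 lay below all EIC lines and 16IC 3 above them all. The log2 fold change was -0.39 (SE 0.44, 95% interval -1.46 to 0.68, edgeR adjusted p = 0.651). Without 16IC 3 it was -1.08 and called (edgeR adjusted p = 0.0165), where edgeR called 13.4% of all genes. An antisense gene, Gm17080, overlaps Slc29a1, and since no source used here states the strand setting of the counting, their reads may not be separated. Gm17080 had 158 counts over the 6 libraries, far fewer than Slc29a1.

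Nt5e, the gene of the adenosine-forming enzyme CD73, was even across EIC and split within 16IC. It had 175, 174 and 160 CPM in EIC 1 to 3 and 263, 378 and 23.2 CPM in 16IC 1 to 3. The lines 16IC 1 and 16IC 2 lay above all EIC lines, while 16IC 3 lay far below them. The level in 16IC 3 was 13.8-fold lower than the mean of the other 16IC lines, and 3.89% of tested genes differed at least as much there in either direction. The log2 fold change over all lines was 0.38 (SE 0.84, 95% interval -1.65 to 2.42, edgeR adjusted p = 0.825). Without 16IC 3 it was 0.92 and called (edgeR adjusted p = 0.0408), where edgeR called 13.4% of all genes. That fit kept 16IC 1 and 16IC 2, the closest pair of libraries. The log2 fold change turned negative without 16IC 2 (-0.24) and with limma-voom (-0.36).

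The tissue phosphatase gene Alpl, which also can hydrolyse AMP, had the reverse pattern in these lines. Named after its values were seen, it had 0 counts in 16IC 1 and 16IC 2 and 285 CPM in 16IC 3, against 6.96 to 9.26 CPM in EIC. The line with the least Nt5e thus had the most Alpl. The epithelial marker sum was also lowest in 16IC 3, and its part in these differences was not tested.

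**Figure D4:**
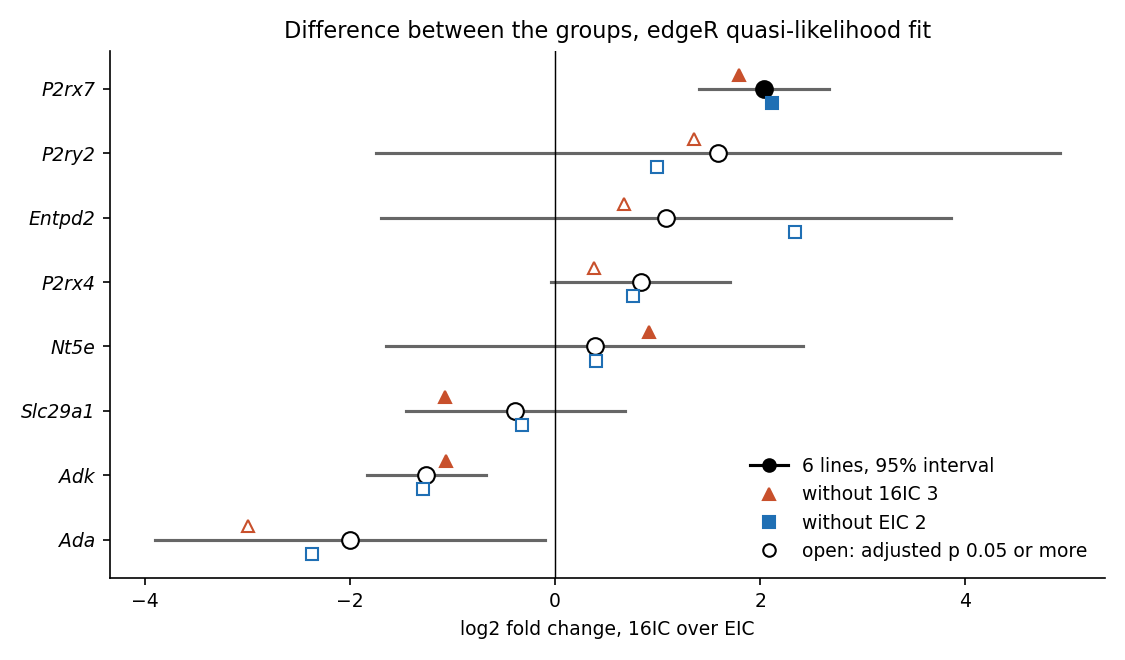
Fitted log2 fold change of the 8 tested genes (circles, with 95% interval), and the values without 16IC 3 (triangles) or without EIC 2 (squares), with filled symbols for an edgeR adjusted p under 0.05. P2rx7 is filled in all 3 fits, and Nt5e, Slc29a1 and Adk are filled only without 16IC 3, where edgeR called 13.4% of all genes.

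Entpd2 and Adora2b were close to silent. Entpd2, the ATP-hydrolysing ectoenzyme, had 15 counts over the EIC lines and 31 over the 16IC lines, at most 0.973 CPM in any line. The ratio of 2.15 had a 95% exact binomial counting interval of 1.12 to 4.28, and over the lines the log2 fold change of 1.08 was not called (SE 1.15, edgeR adjusted p = 0.628). It was 0.50 without EIC 1 and 2.34 without EIC 2. The groups overlapped, with 0 counts in EIC 1 and 0.662 CPM in EIC 2. Entpd2 also overlaps Npdc1, a gene on the same strand with 11604 counts, so reads of the shared part are uncertain. Adora2b, the A2B receptor gene, had 20 and 16 counts over the groups, a ratio of 0.831 with a 95% exact binomial counting interval of 0.403 to 1.69. This interval includes equal levels, and Adora2b was not tested in edgeR after the filter.

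Per kilobase of gene length, which allows genes to be set side by side, Slc29a1 had the highest mean of the members in both groups, though in 16IC its range overlapped that of Nt5e. Its level was 61.2 ± 5.50 CPM per kb in EIC and 46.8 ± 30.6 CPM per kb in 16IC (SD, n = 3). In EIC it was followed by Nt5e (19.7 ± 0.958), Ada (13.7 ± 8.45), P2rx4 (6.73 ± 0.783), Adk (6.43 ± 0.398), P2ry2 (2.20 ± 1.95) and P2rx7 (1.89 ± 0.189), all in CPM per kb. The ranges of Slc29a1 and Nt5e did not overlap in EIC, nor did those of Adk and P2ry2, while the other neighbours in that order down to P2rx7 did overlap.

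In 16IC the order changed in its middle. There P2rx4 (11.99 ± 5.82), P2rx7 (7.74 ± 2.13) and P2ry2 (6.61 ± 1.73) came before Ada (3.42 ± 3.01) and Adk (2.69 ± 0.673), in CPM per kb. Each of these down to Ada overlapped with the next in the order. Adora2b and Entpd2 were last in both groups, at 0.143 to 0.305 CPM per kb, and in 16IC this was the only gap in the order where neighbouring ranges did not overlap.

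Of the 8 tested members, 5 lay above 0 and 3 below 0 on the log2 scale. Their median was 0.61, against a median of -0.0044 over all tested genes. The groups did not overlap in 3 members, P2rx7, P2ry2 and Adk, a share of 37.5% beside the 31.4% of all tested genes. In the authors' deposited table P2rx7 has a log2 fold change of 2.005 with an adjusted p of 8.75e-08, and Adk has -1.28 with an adjusted p of 0.00139. Ada has -2.05 with an adjusted p of 0.0558 in the authors' deposited table, and the adjusted p of the other 6 runs from 0.249 to 0.909.

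A wider list of 54 other genes of purine release, sensing, breakdown, salvage and transport held 46 with a row and 28 that were tested. None of the 28 passed in edgeR or limma-voom (0 called in each). In edgeR 5 of the 28 had an unadjusted p below 0.05, or 17.9%, beside 22.7% of all tested genes. DESeq2, which gave a p-value for 44 of the listed genes, called 5 (Enpp1, Slc29a3, Aprt, Slc28a3 and P2rx2). Among all genes with a DESeq2 p-value it called 2032 of 23182. The share of 12.4% given above counts only the 16362 genes with an adjusted p. Slc28a3 and P2rx2 were not among the 28. The median log2 fold change was -0.10, and the groups did not overlap in 17.9% of the 28. Without 16IC 3 edgeR called 7 of 30 tested, Slc28a3 among them, and 13.4% of all genes.

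The smallest p in that list belonged to Slc29a3, the lysosomal nucleoside transporter ENT3. It had 21.6, 17.4 and 19.1 CPM in EIC 1 to 3 and 29.9, 37.9 and 42.6 CPM in 16IC 1 to 3, without overlap (log2 fold change 0.93, SE 0.22, edgeR adjusted p = 0.0800). Aprt, which salvages adenine, had 83.1 to 110 CPM in EIC and 39.0 to 59.3 CPM in 16IC (log2 fold change -0.92, SE 0.22, edgeR adjusted p = 0.0837). Nt5c2, a cytosolic nucleotidase, had 44.3 to 79.5 CPM in EIC and 101 to 115 CPM in 16IC (edgeR adjusted p = 0.162). DESeq2 called Slc29a3 and Aprt, with adjusted p of 0.0172 and 0.0211.

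Of 8 tested purine salvage genes 7 had a negative value, beside 50.3% of all tested genes, and the median was -0.57. Aprt, Ampd2 and Gda, 3 of the 8, lay lower in 16IC without overlap, and Nt5c2 lay higher, together 50% beside the 31.4% of all tested genes. Gda, guanine deaminase, was named after its values were seen. It had 257, 493 and 426 CPM in EIC 1 to 3 and 1.69, 2.33 and 148 CPM in 16IC 1 to 3 (edgeR adjusted p = 0.347, and 0.00417 without 16IC 3). The 4 tested genes listed under ATP and ADP hydrolysis had positive values, but 0 were called by edgeR and the groups overlapped in each. These values were 4.72 for Enpp1, 2.44 for Entpd3, 0.37 for Ak1, a mainly cytosolic kinase, and 0.07 for Enpp3. Enpp1, the ectoenzyme the series concerns, had 38.9, 61.1 and 1.82 CPM in 16IC 1 to 3 and at most 3.17 CPM in EIC (edgeR adjusted p = 0.157). Enpp1 was called by DESeq2 (log2 fold change 4.69, adjusted p = 0.00388) and by edgeR without 16IC 3 (5.28, adjusted p = 0.0471). Like Nt5e, Enpp1 was high in 16IC 1 and 16IC 2 and low in 16IC 3.

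**Figure D5:**
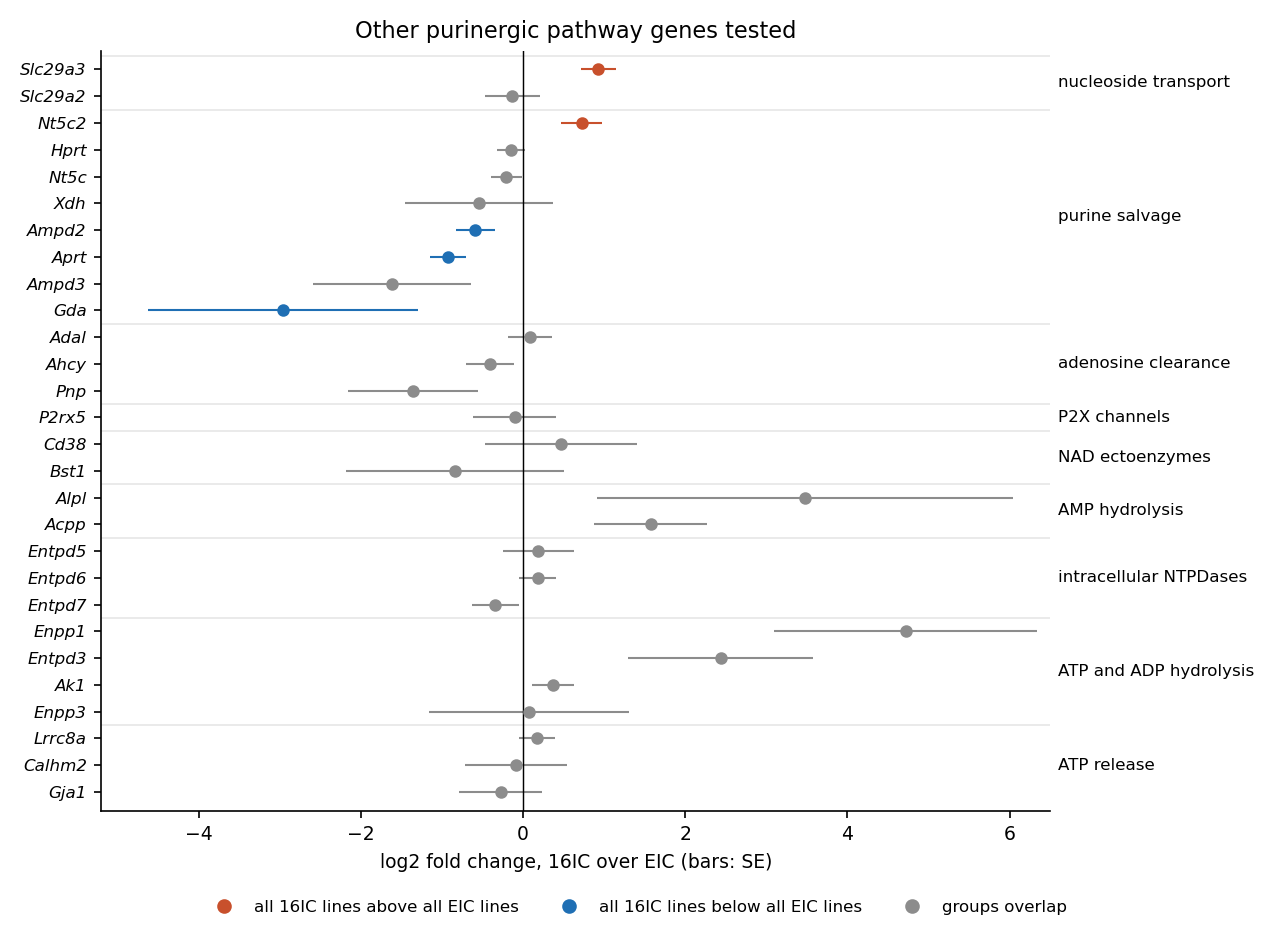
Log2 fold change, 16IC over EIC, with SE bars, of the 28 other purinergic pathway genes tested, grouped by role. Colour shows whether the 3 lines of each group overlap, as they do for all but Slc29a3, Nt5c2, Ampd2, Aprt and Gda.

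Other receptors of the family that had a row were mostly below the filter. The P2Y receptor genes P2ry1, P2ry6 and P2ry12 and the adenosine receptor genes Adora1 and Adora2a had too few counts to be tested, while P2ry4, P2ry10, P2ry13, P2ry14 and Adora3 were not analysed here. Further, of the P2X genes outside the member list P2rx5 alone was tested in edgeR (log2 fold change -0.10, adjusted p = 0.928). P2rx2, another ATP-gated channel gene, was below the filter, with at most 0.171 CPM in EIC and 0.519 to 1.71 CPM in 16IC, without overlap. DESeq2 called P2rx2 (log2 fold change 3.31, adjusted p = 0.0439). Panx1, an ATP release channel, was also below the filter and was named after its values were seen. It had 15.8 CPM in EIC 2 and at most 1.10 CPM in the other lines. EIC 2 thus had the most Panx1 and no P2ry2 reads.

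Genes through which P2X7 acts in myeloid cells were not called with all 6 lines. Il1b had at most 0.324 CPM in any line and the inflammasome sensor gene Nlrp3 at most 0.114 CPM. Of 6 tested genes of this list 5 were below 0 on the log2 scale (median -0.98), beside 50.3% of all tested genes. EdgeR called 0 of them, as did limma-voom and DESeq2. In edgeR 1 of the 6 had an unadjusted p below 0.05, or 16.7%, beside 22.7% of all tested genes. Casp1, the inflammasome protease, had 64.9, 425 and 115 CPM in EIC 1 to 3 and 40.1, 42.0 and 211 CPM in 16IC 1 to 3 (edgeR adjusted p = 0.562). Nek7, an Nlrp3 partner, had 275 to 282 CPM in EIC and 167 to 232 CPM in 16IC (edgeR adjusted p = 0.170). Gsdmd, which encodes the pore-forming gasdermin D, had 8.78, 62.4 and 11.8 CPM in EIC 1 to 3 and 0.422, 0.122 and 12.1 CPM in 16IC 1 to 3 (edgeR adjusted p = 0.382). Without 16IC 3 edgeR called Nek7 (-0.65, adjusted p = 0.0406) and Gsdmd (-6.63, adjusted p = 0.0392), and 13.4% of all genes.

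Targets of cAMP, the messenger that A2B receptors raise, were examined as well. Of 8 tested, 5 were below 0 on the log2 scale (median -0.46), beside 50.3% of all tested genes. Of the 8, 4 lay lower in 16IC without overlap: Nr4a1, Nr4a2, Nr4a3 and Sik1, a share of 50% beside the 14.2% of all tested genes. EdgeR and limma-voom called 0, and DESeq2 called Nr4a2. Before adjustment 3 of the 8 had an edgeR p below 0.05, or 37.5%, beside 22.7% of all tested genes. Without 16IC 3 edgeR called Sik1, Nr4a3 and Pde4b (adjusted p = 0.0193, 0.0171 and 0.0330), and 13.4% of all genes. Nr4a2, an early-response nuclear receptor gene, had 11.1, 10.5 and 8.64 CPM in EIC 1 to 3 and 3.73, 4.90 and 5.06 CPM in 16IC 1 to 3 (log2 fold change -1.14, SE 0.29, edgeR adjusted p = 0.0929).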

How the data were processed

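Libraries of total RNA were made with a NEBNext Ultra II kit, per the labels' protocols. The submitters' processing notes list limma, edgeR, HTSeq, STAR and Trimmomatic, with the builds mm10 and GRCm38. Tool versions and the strand setting were not stated there. The authors deposited read counts per gene and library, which were the input here. They also deposited a normalised signal (count over a size factor), FPKM values, and their comparison as a log2 fold change with p-values and adjusted p-values, which were copied only where named.

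Genes were kept with filterByExpr (minimum count 10), scaled with TMM and tested over the whole table, 16IC against EIC, with edgeR 4.0.16 quasi-likelihood (R 4.3.3) and Benjamini-Hochberg adjustment at 0.05, which was tested on simulated data. SE is the fitted value over the square root of F, and intervals are approximate. Alternatives used limma 3.58.1, DESeq2 1.42.0, other scalings and filters, and each line left out. Log2 CPM used a prior count of 1. No 2 libraries agreed within sampling noise, by chi-square per degree of freedom of their counts. The closest pair was 16IC 1 and 16IC 2 (19.5), followed by EIC 1 and EIC 3 (51.6). Line 16IC 3 was about as far from 16IC 1 and 16IC 2 (269 and 261) as from the EIC lines (251 to 276). Position and overlap came from GENCODE M21 (GRCm38), which gave the same positions as the deposited table for all 9 members. The members and lists were chosen with earlier results of these data known. The 10 members were always named, and from each other list genes past the threshold and up to 4 with the smallest p. Further genes of those lists, Panx1, Il1b, Nlrp3 and several markers among them, were named outside this rule with their values known. For the called member and the member with the largest SD of log2 CPM, the 3 most correlated genes were named.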

Additional observations from a re-analysis of the deposited data

How the results depend on the processing

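The number of genes called changed widely when any line but EIC 2 was left out, and depth limits Entpd2 and Adora2b. P2rx7, P2rx4, P2ry2, Ada, Adk, Slc29a1 and Entpd2 kept their direction in all alternatives that gave a value, and Adora2b has no fitted value after the filter. Nt5e reversed without 16IC replicate 2 (-0.24) and with limma-voom (-0.36, adjusted p = 0.856). The cause was not tested.

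Leaving out each line in turn, the log2 fold change ran from 1.79 to 2.18 for P2rx7, -0.24 to 0.92 for Nt5e, -1.38 to -1.06 for Adk, -3.00 to -1.44 for Ada, 0.50 to 2.34 for Entpd2, 0.38 to 1.10 for P2rx4, 0.99 to 2.17 for P2ry2 and -1.08 to -0.14 for Slc29a1. Genes called ran from 0 to 1913 (0 without EIC 1, EIC 3 or 16IC 2, and 1913 without 16IC 3), members called from 0 to 4 and other pathway genes called from 0 to 7. Where edgeR called 0 genes, 2627, 2341 and 2251 had an unadjusted p under 0.05 without EIC 1, EIC 3 and 16IC 2. When the closest pair, 16IC 1 and 16IC 2, entered as their mean, the edgeR calls were 0 genes and 0 members, with 2257 genes at an unadjusted p under 0.05, and P2rx7 had a log2 fold change of 2.14 (adjusted p = 0.150). Limma-voom and DESeq2 were not run in these cases. With no filter on low counts 223 genes were called. DESeq2 called 2032 genes, 2 members and 5 other pathway genes, and gave Adk a log2 fold change of -1.28 (adjusted p = 0.00139). With all 6 lines edgeR called 335 genes. No paired analysis was possible because the labels pair no EIC line with a 16IC line. The replicate numbers used here only name the lines.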
